A study of Mus musculus with 4 samples.

Results

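The 8 genes described here encode inflammatory cytokines, a pentraxin and receptors: *Il6*, *Il1b*, *Il1r1*, *Tnf*, *Tslp*, *Ptx3*, *Csf1* and *Csf1r*. They were taken by name from the 16892 genes of a single-cell count table, and all 8 were found in it. The table covers 8880 cells of the male reproductive tract downstream of the testis. The tissue came from 4 FVB/NJ male mice, 10 to 12 weeks old, with no treatment or genetic change named in the labels. The tract was cut into caput, corpus and cauda epididymis and vas deferens, the 8 pieces of each region were pooled, and each pool gave 1 library, so the 4 groups hold 1 sample each. No value has a replicate, differences between libraries cannot be told apart from differences between pools, and regions are compared without a test. The tissue was cleared of sperm and dissociated with collagenase and trypsin before droplet capture with a 3′ kit.

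Interleukin 6 signals through its receptor *Il6ra* together with the shared subunit *Il6st* (gp130). Interleukin 1 beta and tumor necrosis factor are classical products of activated macrophages. Interleukin 1 acts through *Il1r1* with *Il1rap* and is held back by the antagonist *Il1rn* and the decoy *Il1r2*, and TNF acts through *Tnfrsf1a* and *Tnfrsf1b*. Thymic stromal lymphopoietin (*Tslp*) is an epithelial and stromal cytokine whose receptor joins *Crlf2* with *Il7r*. *Csf1* and *Il34* are the ligands of *Csf1r*, the receptor that maintains macrophages. *Ptx3* is a secreted pentraxin that binds microbes and complement. In the epididymis, macrophages and dendritic cells lie in and around the epithelium, where sperm carry antigens that first appear at puberty.

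*Il6*, on chromosome 5 (30013114 to 30019981), had the most UMIs of the 8 genes, 12464, rank 310 of all genes in the table. *Il1b* (chromosome 2, 129364570 to 129371139) had 2485 UMIs, *Ptx3* (chromosome 3, 66219910 to 66225805) had 1865, *Il1r1* (chromosome 1, 40225080 to 40317257) had 1367, *Tslp* had 1257, *Csf1* (chromosome 3, 107741048 to 107760469) had 1034, *Tnf* (chromosome 17, 35199381 to 35202007) had 856 and *Csf1r* had 217. The spans are those of protein-coding genes in the GENCODE annotation of GRCm38. A UMI marks 1 captured transcript whatever its length. Levels below are UMIs of a gene per 1000000 UMIs of a group of cells (UPM), and brackets give 95% exact intervals that cover counting error only, not variation between mice, dissections or dissociations. The libraries held 1433 to 3506 cells and 4408989 to 10744928 UMIs, with a median of 1433 to 2207 UMIs a cell. Of 8837 barcodes, 43 occurred in more than 1 library.

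The stretches before the start sites of *Il6* and *Ptx3*, whose levels were highest in the same stromal population, and of *Il1b* and *Tnf*, both highest in macrophages, are shown as 1 pair from each of these populations. *Il1r1*, *Csf1* and *Tslp* were highest in the stromal population too. Each is the 250 bases upstream of the start that RefSeq gives on GRCm38.p6, read 5′ to 3′ on the gene's strand. Capitals mark matches on either strand to the NF-κB consensus, to AP-1 (TGANTCA), to C/EBP (TTGCNNAA) and to the CRE half-site (TGACGT). RefSeq promoters were found for 6 of the 8 genes.
*Il6*, chr5:30012864-30013113, plus strand: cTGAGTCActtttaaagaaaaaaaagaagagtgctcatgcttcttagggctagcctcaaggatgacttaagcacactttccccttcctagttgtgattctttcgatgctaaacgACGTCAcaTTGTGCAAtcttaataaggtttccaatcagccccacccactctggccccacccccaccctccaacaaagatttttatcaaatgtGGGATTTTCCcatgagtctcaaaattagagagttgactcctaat
*Ptx3*, chr3:66219637-66219886, plus strand: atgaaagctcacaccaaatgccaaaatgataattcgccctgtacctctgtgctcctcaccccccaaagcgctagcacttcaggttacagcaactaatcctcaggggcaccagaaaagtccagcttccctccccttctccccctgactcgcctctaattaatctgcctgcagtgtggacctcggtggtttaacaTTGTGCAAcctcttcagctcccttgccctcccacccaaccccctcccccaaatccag
*Il1b*, chr2:129371140-129371389, minus strand: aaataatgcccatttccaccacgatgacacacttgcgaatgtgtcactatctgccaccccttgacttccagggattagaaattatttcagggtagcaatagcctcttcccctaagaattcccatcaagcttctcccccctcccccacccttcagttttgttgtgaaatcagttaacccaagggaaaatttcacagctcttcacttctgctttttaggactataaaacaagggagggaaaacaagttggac
*Tnf*, chr17:35202008-35202257, minus strand: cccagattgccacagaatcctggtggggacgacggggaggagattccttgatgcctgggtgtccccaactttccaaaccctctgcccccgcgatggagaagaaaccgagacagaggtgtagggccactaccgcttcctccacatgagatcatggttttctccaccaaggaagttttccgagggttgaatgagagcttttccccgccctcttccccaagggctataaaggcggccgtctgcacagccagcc
The *Il6* stretch held a match to each of the 4 motifs, and no matches overlapped. Its NF-κB match, GGGATTTTCC, began 44 bases before the start, its AP-1 match 249 bases, its CRE half-site 136 bases and its C/EBP match 128 bases. The *Ptx3* stretch held the same 8 letters as the C/EBP match of *Il6*, TTGTGCAA, 57 bases before its start. The *Il1b* and *Tnf* stretches held no match to these letters. Of the stretches not shown, that of *Csf1* held an NF-κB match, GGAAAGTCCC, 154 bases before the start, and those before the 2 starts of *Il1r1* held a C/EBP match, TTGCTGAA, at 133 bases and an NF-κB match, GGAATGCCCC, at 232 bases. Of 32851 promoters in the RefSeq table, 7.25% held the NF-κB consensus, 6.75% AP-1, 9.56% C/EBP and 6.47% the CRE half-site in the same window.

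Where in the tract each transcript was found was asked first over 7 broad cell types. *Il1b*, *Tnf* and *Csf1r* belonged to immune cells, which made up 195 of the 8880 cells but held 95.4%, 89.3% and 75.6% of these genes' UMIs. *Il6*, *Ptx3*, *Il1r1*, *Tslp* and *Csf1* belonged mainly to stromal cells, which held 88.5%, 97.7%, 76.3%, 61.5% and 50.6% of them. A gene was called concentrated where a broad type held 20 or more UMIs of it and exceeded each of the other types, raised to a floor of 3 UMIs, by a fold of 4 or more. By this rule 4 of the 8 genes were concentrated (*Il1b*, *Tnf* and *Csf1r* in immune cells and *Ptx3* in stromal cells), against 10.4% of the 12868 genes tested. *Il1b* stood at 4072 UPM in immune cells and 13.2 in endothelial cells, the next type, and *Ptx3* at 281 in stromal and 11.8 in muscle cells. *Il6* was not concentrated, since endothelial cells (1176 UPM) came near stromal cells (1701 UPM).

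**Figure D1:**
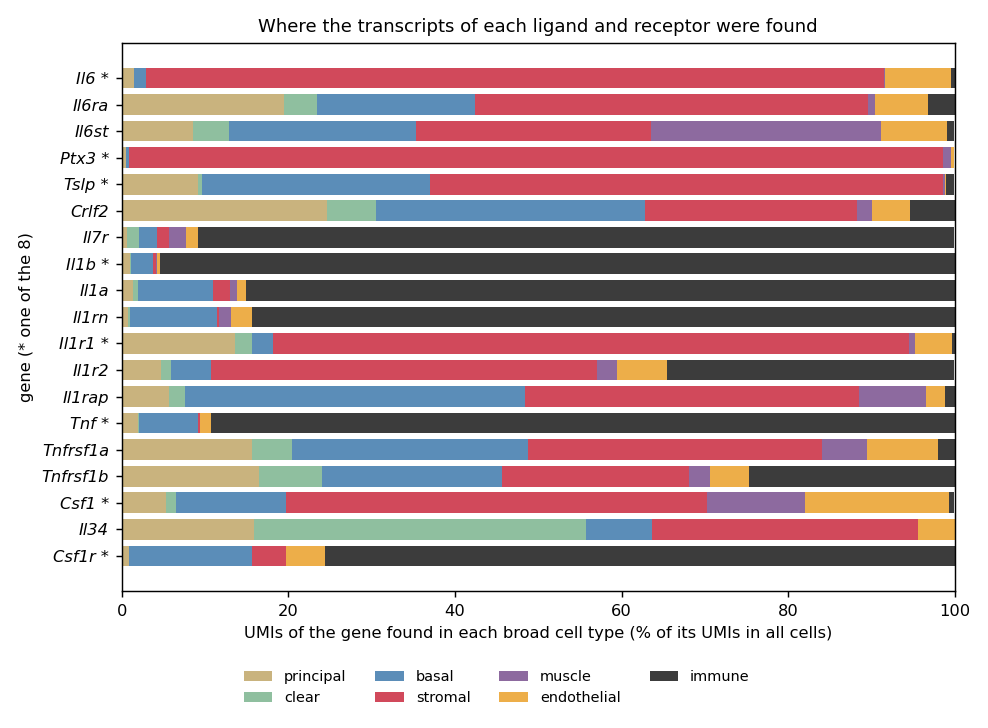
Share of each gene's UMIs (% of its UMIs in all 8880 cells, horizontal axis) found in each of the 7 broad cell types (colors), for the 8 genes (asterisks) and their receptors, antagonist, decoy and second ligands. *Il6*, *Ptx3* and *Il1r1* bars are mostly stromal, *Il1b*, *Tnf* and *Csf1r* bars mostly immune, and the bars of *Il6ra*, *Il6st*, *Crlf2* and *Tnfrsf1a* are divided among several types.

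In principal cells, the absorptive and secretory epithelium of the duct, all 8 genes were low when all such cells were pooled. *Il1r1* stood at 19.4 UPM, *Il6* at 18.7, *Tslp* at 12.0 and *Csf1r* at 0.209. *Il1r1* was higher in the deposited populations principal 11 (63.5 UPM, 40.3 to 95.3) and principal 10 (59.5, 36.8 to 90.9), mainly cauda cells. Endothelial cells had 71.8 UPM of it. Clear cells, the proton-secreting cells, had 7.53 UPM of *Il6* and 0.684 of *Il1b* and of *Tnf*, and no UMI of *Ptx3* or *Csf1r* among 1461705. *Tslp* was the gene of the 8 with the largest epithelial share: basal cells, the layer along the basement membrane, held 27.4% of its UMIs at 55.8 UPM. *Csf1* was the most evenly divided, with 214 UPM in endothelial, 80.6 in stromal, 79.3 in muscle and 22.2 in basal cells.

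Within the 34 deposited populations, 5 of the 8 genes were highest in the same one, the secretory stromal cells. These are 226 cells, of which 213 came from the vas deferens, 8 from the cauda, 5 from the corpus and 0 from the caput. They carried all 5 fibroblast markers of the list used (23164 UPM in all, with *Dcn* at 19090) and 7.40 UPM of 7 macrophage markers with 6 of them at 0. The 5 leukocyte markers summed to 132 UPM there, mostly *Cd52* (121 UPM, in 12 cells), with *Ptprc* at 0. The names of the populations are those of the depositors, written out. *Il6* stood at 7180 UPM there (6980 to 7385), *Ptx3* at 2414 (2298 to 2534), *Tslp* at 974 (901 to 1051), *Il1r1* at 539 and *Csf1* at 265 (228 to 307). *Il1b*, *Tnf* and *Csf1r* had no UMI among 675606, which allows up to 4.44 UPM. The populations were clustered on these same counts, so a high level in a cluster describes it and is no independent finding.

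**Figure D2:**
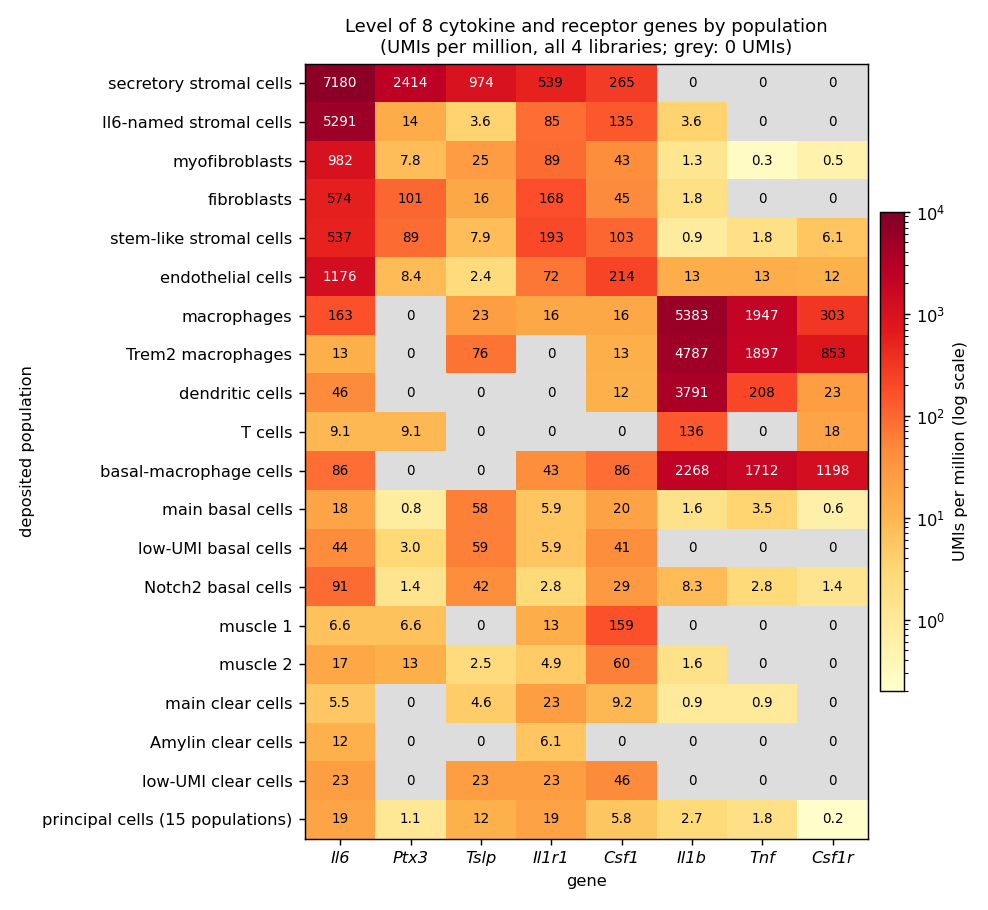
Level of the 8 genes (columns) in the non-principal deposited populations and in all principal cells together (rows), in UPM on a log color scale over all 4 libraries, with grey for 0 UMIs. *Il6*, *Ptx3*, *Tslp*, *Il1r1* and *Csf1* share their highest row, the secretory stromal cells, where *Il1b*, *Tnf* and *Csf1r* are at 0.

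The 5 genes differed in how far this population stood above the next one with at least 20 UMIs. *Ptx3* was 23.8-fold (18.3 to 31.7) above fibroblasts and *Tslp* 16.5-fold (10.6 to 27.2) above low-UMI basal cells. *Il1r1* was 2.79-fold (2.36 to 3.32) above the stem-like stromal cells, and *Il6* 1.36-fold (1.28 to 1.44) above a stromal population that the depositors named for *Il6* itself. *Csf1* was 1.24-fold (0.999 to 1.53) above endothelial cells, which is within counting error. These ratios pool the libraries, from which the populations came in different parts. Within the vas deferens *Il6* stood at 7282 UPM in secretory and 1178 in Il6-named cells (6.18-fold, 4.55 to 8.62), while *Csf1* was higher in endothelial than in secretory cells, at 341 against 266 UPM (1.28-fold, 1.03 to 1.6). Against all other stromal cells together, all 5 genes passed the fold of 4 with at least 20 UMIs, while 1.46% of the 10534 genes tested did. The median log2 ratio was 2.75 for these 5 tested members and -0.40 for all tested genes. *Il1b*, *Tnf* and *Csf1r* had under 20 UMIs in stromal cells and were not tested. The 5 tested are those already highest in the secretory cells, so their count and median describe that and are no independent finding. The ratio was 73.1 (62.9 to 85.3) for *Ptx3*, 49.2 (40.3 to 60.5) for *Tslp*, 6.75 (6.50 to 7.01) for *Il6*, 4.61 (4.05 to 5.25) for *Il1r1* and 4.48 (3.72 to 5.38) for *Csf1*.

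Because the secretory cells came almost entirely from 1 library, the same ratio was taken within the vas deferens alone. There it was 103 (64.7 to 175) for *Tslp*, 41.0 (33.9 to 50.1) for *Ptx3*, 13.8 (12.8 to 14.8) for *Il6*, 3.32 (2.84 to 3.89) for *Il1r1* and 3.00 (2.41 to 3.74) for *Csf1*. *Il6*, *Tslp* and *Ptx3* passed the fold within the library and *Il1r1* and *Csf1* did not, where 1.66% of 7707 genes tested passed. Over all 4 libraries, the same 3 genes passed when levels were averaged over cells or UMIs were divided by size factors. These 2 measures were not applied within the vas deferens alone. With all 4 libraries pooled, 37 of the 59 pathway genes in the table were tested against other stroma, and 5 were called higher in secretory cells. They were *Csf3* (557 against 28.4 UPM), a neutrophil growth factor, *Lif* (216 against 14.5), of the interleukin 6 family, *Tnfaip6* (1237 against 210), a matrix partner of PTX3, *Nfkb1* (894 against 215) and *Csf2rb* (29.6 against 3.27). These 5 were not compared within the vas deferens alone.

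The share of secretory cells with a UMI differed between the 5 genes, as their levels did. After each cell was thinned to 1000 UMIs (41 shallower cells were left out), *Il6* was detected in 83.2% of 185 cells (77.1 to 88.3), *Ptx3* in 43.8% (36.5 to 51.3), *Il1r1* in 36.2%, *Tslp* in 24.3% (18.3 to 31.2) and *Csf1* in 21.1%. Without thinning the shares were 85.4%, 48.7%, 56.2%, 34.5% and 38.1%. In main clear cells, taken as the background, thinned shares were 1.16% for *Il6*, 2.91% for *Il1r1*, 1.16% for *Tslp* and 0 of 172 cells for *Ptx3* and *Csf1*, with 44 cells left out and a median depth of 5328 UMIs against 3066. The highest 10% of cells held 83.3% of the *Tslp* UMIs, 64.3% of those of *Ptx3*, 55.3% of *Csf1*, 46.9% of *Il6* and 41.5% of *Il1r1*. This share is also larger by construction where fewer cells carry a gene. A single cell held 98 of the 658 *Tslp* UMIs.

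**Figure D3:**
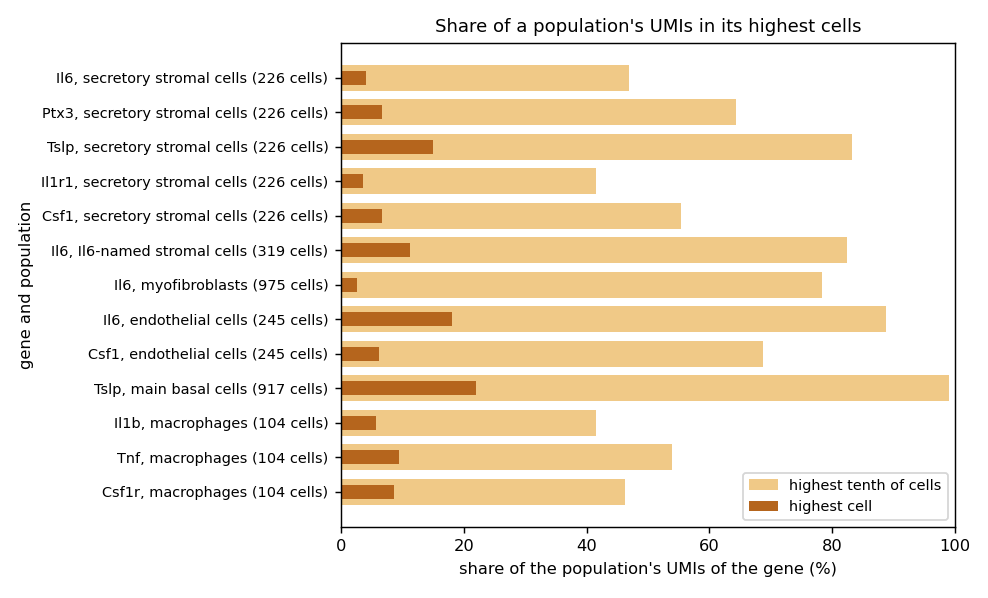
Share of a population's UMIs of a gene (%, horizontal axis) held by its highest 10% of cells (light bars) and by its single highest cell (dark bars), for 13 pairs of gene and population. *Tslp* in main basal cells and *Il6* in endothelial cells lie at 99.0% and 88.8% in the highest 10%, while *Il6* and *Il1r1* in secretory stromal cells lie at 46.9% and 41.5%.

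Joint detection in the thinned secretory cells differed between pairs. *Ptx3* was found in 48.7% (40.6 to 56.9) of the 154 cells with *Il6* and in 19.4% (7.45 to 37.5) of the 31 without, and *Tslp* in 27.9% (21.0 to 35.7) and 6.45% (0.791 to 21.4). *Tslp* was found in 24.7% of cells with *Ptx3* and 24.0% of cells without, with intervals of 15.8 to 35.5 and 16.2 to 33.4. *Il1r1* was found in 36.4% of cells with *Il6* and 35.5% without. All of *Il6*, *Ptx3* and *Tslp* were seen in 10.8% of the cells, and none of them in 12.4%. The cells with *Il6* were deeper before thinning (median 3614 UMIs against 2924), and the part of depth in these shares was not tested.

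*Il6* was also high outside the secretory cells, and there the libraries differed widely. The Il6-named stromal cells are 319 shallow cells (median 670 UMIs) with smooth muscle markers at 14609 UPM, near the 15228 of myofibroblasts, and fibroblast markers at 5024. Of 5 leukocyte markers 4 were at 0, and the fifth, *Cd52*, stood at 626 UPM. *Il6* stood at 8512 UPM in the 182 of these cells from the corpus, 2184 in the 66 from the caput, 1178 in the 37 from the vas deferens and 158 in the 34 from the cauda. In myofibroblasts, the contractile cells around the duct, it stood at 1612 UPM in the corpus (420 cells), 621 in the vas deferens, 597 in the caput and 282 in the cauda. The corpus was the highest library in both populations.

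The remaining stroma and the endothelium had the same highest library. In fibroblasts *Il6* stood at 1247 UPM in the corpus, 449 in the vas deferens, 428 in the cauda and 95.4 (1 UMI) in the caput. In stem-like stromal cells, marked by *Lgr5* and nearly all from the vas deferens, it stood at 3211 UPM in the 16 corpus cells, 1364 in 5 caput cells, 593 in 11 cauda cells and 466 in 517 vas deferens cells. In endothelial cells it stood at 3091 UPM in the corpus (39 cells), 3012 in the cauda (12 cells), 664 in the caput (50 cells) and 341 in the vas deferens (144 cells). The cauda value came mainly from 1 cell with 178 of its 225 UMIs, and without it the level was 674 UPM. The corpus value without its own highest cell was 2691 UPM. In the 5 secretory stromal cells of the corpus *Il6* stood at 12355 UPM, in the 8 of the cauda at 1938 (541 without 1 cell that held 27 of 32 UMIs), and in the 213 of the vas deferens at 7282. In the Il6-named cells of the vas deferens 21 of 41 UMIs lay in 1 cell.

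**Figure D4:**
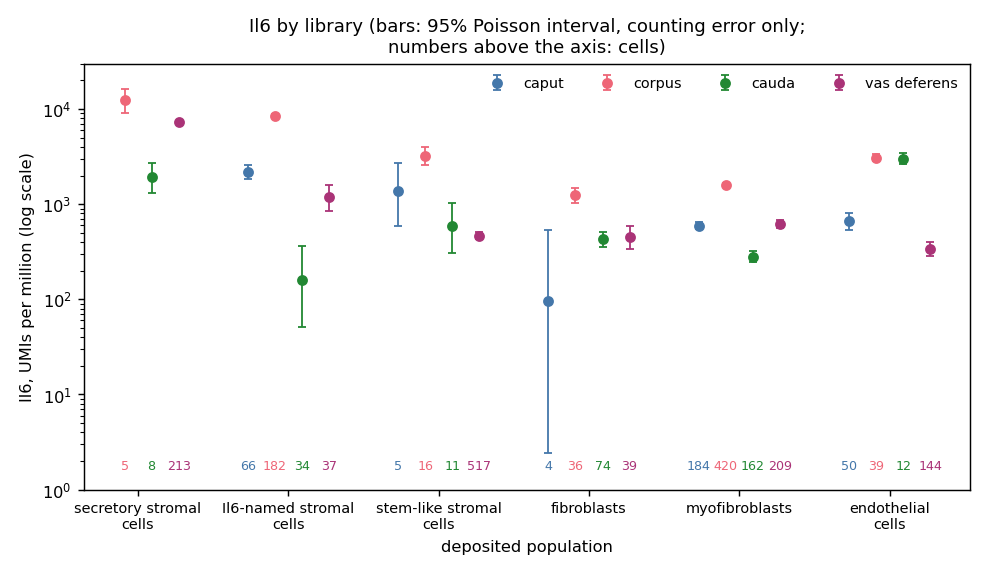
*Il6* in UPM (log axis) in 6 populations by library (colors), with exact 95% Poisson intervals for counting error and the number of cells above the axis. The corpus point is the highest in every population, with the cauda point next to it in endothelial cells (3012 against 3091) resting mainly on 1 cell.

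The corpus was compared with the other 3 libraries together after these levels had been seen. In Il6-named stromal cells *Il6* was 6.06-fold (5.18 to 7.12) higher in the corpus. It was 1 of 2 members tested that passed the fold, where 2.62% of 1642 genes passed toward the corpus and 1.77% toward the others. In endothelial cells *Il6* (4.38-fold, 3.85 to 4.97) and *Il1r1* (4.08-fold, 2.38 to 7.01) passed of 3 members tested, against 0.651% of 4458 genes toward the corpus and 1.12% away from it. In myofibroblasts *Il6* (3.30-fold, 3.07 to 3.54) fell short of the fold. *Ptx3* passed there (5.11-fold, 2.03 to 15.3) as 1 of 5 members tested, against 0.494% of 8295 genes toward the corpus and 1.66% away, but 19 of its 24 corpus UMIs lay in 1 cell, and its level of 14.2 UPM was 2.98 without that cell. Without the 1 of 39 corpus cells with most UMIs of each gene, the endothelial ratios of *Il6* (3.81, 3.33 to 4.35) and *Il1r1* (2.97, 1.61 to 5.36) both fell short of the fold as well. The endothelial calls were also lost without the vas deferens library (log2 ratio of *Il6* 1.07), those of *Il1r1* in endothelial cells and *Ptx3* in myofibroblasts also without the cauda. Of the 16, 20 and 31 pathway genes tested in Il6-named, endothelial and myofibroblast cells, 1 was called each time, *Csf3*, higher in the corpus. It stood at 351 against 23.5 UPM (3 UMIs), 3456 against 399 and 16.0 against 1.86 (4 UMIs).

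A larger share of myofibroblasts carried *Il6* in the corpus than in the other libraries. After thinning it was detected in 35.7% (30.8 to 40.8) of corpus myofibroblasts and 14.5% to 21.5% of those in the other libraries, with 12 to 47 cells left out a library. Unthinned shares were 46.7% in the corpus and 22.8% to 27.3% elsewhere, with median depths of 2930 to 4986 UMIs. In endothelial cells it was detected in 53.1% (34.7 to 70.9) of 32 corpus cells and 54.5% (23.4 to 83.3) of 11 cauda cells, and in 16.2% (6.19 to 32.0) of caput and 10.0% (5.27 to 16.8) of vas deferens cells, with unthinned shares of 59.0%, 66.7%, 14% and 18.1%. The share in main clear cells was 1.16%. The corpus and cauda shares in endothelial cells thus lie within each other's intervals. The 13 immediate early and stress genes, which dissociation can raise, also differed between libraries. Like *Il6*, their sum was highest in the corpus in secretory stromal cells (25499 UPM from 97 UMIs, against 14291 for the cauda and 11654 for vas deferens cells) and in fibroblasts (16992 UPM, against 11161 to 16300). It was highest in the caput in myofibroblasts (25995 against 13140 in the corpus), endothelial cells (18224 against 16909), Il6-named cells (23017 against 13074) and stem-like cells (55754 against 22586). The part of these genes in the *Il6* levels was not tested. *Il6* in principal cells, a level that free RNA could set, was 24.7 UPM in the corpus, 25.0 in the vas deferens, 9.28 in the caput and 6.32 in the cauda.

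*Csf1* in endothelium was highest in the vas deferens, where *Il6* was lowest. These 245 cells carried *Pecam1* at 660 and *Cdh5* at 652 UPM. *Csf1* stood at 341 UPM in the vas deferens, 116 in the corpus (49.8 without the 1 cell that held 11 of its 19 UMIs), 40.2 (3 UMIs) in the cauda and 14.1 (2 UMIs) in the caput. It was detected in 30.8% (22.7 to 39.9) of 120 thinned vas deferens cells and 0 of 37 caput cells, where a floor of 3 cells would be 8.11%. Unthinned shares were 39.6% and 4.00%, with 24 and 13 cells left out and median depths of 2581 and 2430 UMIs. Between vas deferens and epididymis, *Csf1* was 5.41-fold (3.50 to 8.70) higher in the vas deferens and *Il6* 6.37-fold (5.36 to 7.61) higher in the epididymis, so that 2 of the 3 members tested passed, 1 each way. Of 3634 genes, 2.15% passed toward the vas deferens and 2.53% toward the epididymis. With a mean over cells or with size factors, *Il6* did not pass the fold and *Csf1* did. Without the caput library the log2 ratio of *Csf1* was 1.89, under the fold of 4. The early genes were lowest in vas deferens endothelium, as *Il6* was, at 9878 UPM against 12597 to 18224 in the epididymal libraries, and their part in the *Il6* difference was not tested. Of 19 pathway genes tested, *Csf3* alone passed, higher in the epididymis (1865 against 277 UPM).

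All endothelial UMIs of *Il1b* (11), *Tnf* (11) and *Csf1r* (10) came from the vas deferens library. The endothelial cells also held 254 UPM of macrophage markers, with all 7 detected, and the part of macrophage RNA in these counts was not tested. In myofibroblasts 0 of the 5 members tested passed between vas deferens and epididymis, against 1.48% of 8968 genes toward the vas deferens and 1.73% toward the epididymis. Of 32 pathway genes tested, *Il33* (242 against 1.64 UPM) and *Nptx2* (153 against 29.6) passed, both higher in the epididymis. *Il6* was 1.69-fold (1.52 to 1.88) higher in the epididymis and *Csf1* 1.71-fold (1.17 to 2.46) higher in the vas deferens. *Il1r1* in myofibroblasts was highest in the cauda, at 196 UPM against 107 in the vas deferens, 61.1 in the corpus and 26.4 in the caput, 3.19-fold (2.56 to 3.96) above the other libraries together. The sum of the 12 leukocyte and macrophage markers followed the same order in these cells, at 435, 187, 136 and 19.8 UPM. Such a sum can rest on 1 gene. In Il6-named stromal cells of the cauda it was 1956 UPM with 11 of the 12 markers at 0. The sum is therefore no measure of leukocytes by itself. Immune cells themselves had *Il1r1* at 8.59 UPM (5 UMIs), and the part of leukocyte RNA in the *Il1r1* levels was not tested. Outside the secretory cells *Ptx3* was highest in corpus fibroblasts, at 443 UPM, where 35 of 44 UMIs lay in 1 of 36 cells and the level without that cell was 96.5 UPM.

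Macrophages carried most of the interleukin 1 and TNF transcripts. The main population of 104 cells carried *Cd14* at 3280, *C1qa* at 2175 and *Cd68* at 430 UPM, and a further 26 cells carried *Trem2* at 1082 UPM. *Il1b* stood at 5383 UPM in the former (5127 to 5650) and 4787 in the latter (4315 to 5296), and *Tnf* at 1947 and 1897, a difference within counting error (ratio 1.03, 0.856 to 1.24). *Csf1r* was 2.81-fold (2.02 to 3.89) higher in the *Trem2* cells, at 853 against 303 UPM. The 21 dendritic cells, with *Ccr7* at 1260 UPM, had 3791 UPM of *Il1b* but 208 of *Tnf* and 23.1 (2 UMIs) of *Csf1r*. T cells had 136 UPM of *Il1b* and no UMI of *Tnf*.

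The highest level of *Csf1r*, 1198 UPM from 28 UMIs, lay in 15 cells that the depositors placed among basal cells under a basal and macrophage name. Their markers were those of macrophages: *Lyz2* stood at 11084, *C1qa* at 5349 and *Trem2* at 1840 UPM, while *Krt14* stood at 85.6 UPM against 2911 in main basal cells. *Il1b* (2268 UPM) and *Tnf* (1712 UPM) were high there too, and these 15 cells held 53 of the 67 basal UMIs of *Il1b*, 40 of 60 of *Tnf* and 28 of 32 of *Csf1r*. Their *Csf1r* level did not differ from that of *Trem2* macrophages beyond counting error (1.40-fold, 0.870 to 2.21).

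Macrophages, with the *Trem2* cells included, and secretory stromal cells were nearly complementary in the 8 genes. All 8 genes passed the fold between them. Of these, 3 were higher in macrophages, where 11.1% of 4131 genes passed, and 5 in secretory cells, where 21.4% did. Each gene had already been found high in either macrophages or secretory cells. The numbers passing therefore describe that choice of populations and are no independent finding. Taking 3 UMIs over the secretory cells as the floor, *Il1b* was 1185-fold, *Tnf* 436-fold and *Csf1r* 93.5-fold higher in macrophages. These floored ratios are no lower bounds. *Ptx3*, with no UMI in 130 macrophages, was 310-fold higher in secretory cells by the same floor over the macrophages. *Il6* was 54.2-fold (41.2 to 72.9), *Il1r1* 41.5-fold (17.6 to 129), *Tslp* 28.9-fold (16.8 to 54.5) and *Csf1* 17.0-fold (7.66 to 47.0) higher in secretory cells. Of 40 pathway genes tested, 17 were higher in macrophages and 8 in secretory cells. The former included *Il1a*, *Il1rn*, *Tnfrsf1b* and *Il7r*, and the latter *Il11* (420 UPM, with 0 UMIs in macrophages) and *Il33* (228 against 18.2 UPM).

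After thinning, *Il1b* was detected in 70.9% (61.5 to 79.2) of 110 macrophages of both populations, *Tnf* in 59.1% (49.3 to 68.4) and *Csf1r* in 24.5% (16.8 to 33.7), with 20 cells left out. The unthinned shares were 73.1%, 70.8% and 54.6%, and all 3 genes were at 0 of 172 in thinned main clear cells. In the main population *Tnf* was found in 60.6% of cells with *Il1b* and 56.5% of cells without. The antagonist *Il1rn* was found in 43.9% (31.7 to 56.7) of cells with *Il1b* and 17.4% (4.95 to 38.8) without, with medians of 3486 and 2186 UMIs before thinning.

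Across libraries, the levels of *Il1b*, *Tnf* and *Il1a*, pooled over both macrophage populations, differed more than that of *Csf1r*. *Il1b* stood at 7658 UPM in the 7 caput macrophages, 7200 in the 24 of the corpus, 4908 in the 21 of the cauda and 4576 in the 78 of the vas deferens. Of the 114 caput UMIs, 82 lay in 1 cell. *Tnf* stood at 2687, 3907, 2448 and 1037 UPM in the same order, lowest in the vas deferens. *Il1a*, the other agonist of the interleukin 1 receptor, stood at 2418, 1475, 707 and 459 UPM. *Il1rn* had its lowest level in the caput, at 336 UPM (5 UMIs), and stood at 724, 782 and 982 UPM in the others, *Csf1r* at 403 (6 UMIs), 383, 391 and 436, and *Tnfrsf1b* at 67.2 (1 UMI), 246, 227 and 280.

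**Figure D5:**
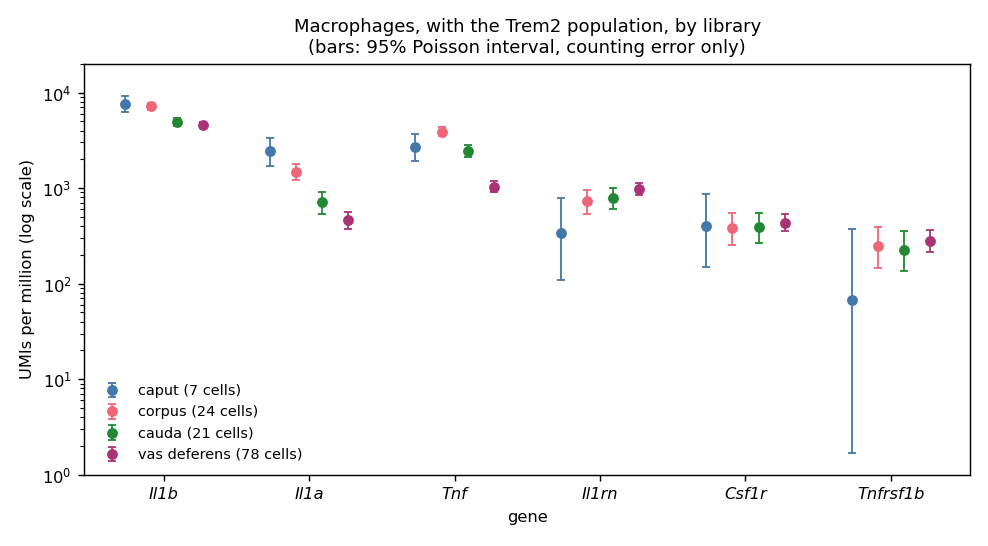
Levels of 6 genes in macrophages of both populations (UPM, log axis) by library (colors), with exact 95% Poisson intervals for counting error. The *Tnf* point of the vas deferens, at 1037, lies below the other 3 (2448 to 3907), while the *Csf1r* points lie together between 383 and 436.

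Between vas deferens and epididymis, *Tnf* was 3.00-fold (2.56 to 3.52) and *Il1b* 1.35-fold (1.23 to 1.47) higher in epididymal macrophages, and neither passed the fold of 4. *Il6* was the 1 member of 4 tested that passed, 9.02-fold (3.30 to 34.5) higher in the vas deferens with 47 UMIs against 4, where 4.28% of 1331 genes passed toward the vas deferens and 1.43% toward the epididymis. Of 25 pathway genes tested, *Il12b* alone passed, 21.5-fold higher in the epididymis (1183 against 55.1 UPM). The early genes summed to 32646 UPM in caput, 13375 in corpus, 10296 in cauda and 7403 in vas deferens macrophages, the same order of libraries as *Il1b* and *Il1a*. Their part in these differences was not tested. The vas deferens is also the library with the *Il6*-rich secretory cells, and the part of free RNA in macrophage *Il6* was not tested.

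*Tslp* had a second site in basal cells. In main basal cells, with *Krt14* at 2911 UPM, it stood at 178 UPM in the cauda, 50.1 in the corpus, 24.8 in the vas deferens and 24.6 in the caput. The cauda was 4.89-fold (3.86 to 6.19) above the other libraries together. Of its 138 UMIs 65 lay in 1 of 131 cells, and without that cell the level was 95 UPM. The thinned share was 6.56% (2.87 to 12.5) in the cauda and 1.40% to 2.79% elsewhere (unthinned 19.8% and 6.87% to 10.1%, median depths 3778 to 6796 UMIs), and 1.16% in main clear cells. With the libraries pooled, *Tslp* stood at 59.0 UPM in low-UMI, 57.9 in main and 41.5 in *Notch2* basal cells. *Tslp* had no UMI in the 15 cells with a basal and macrophage name, where the exact interval reaches 158 UPM. It was further seen in the vas deferens populations principal 12 and principal 13, at 29.5 and 24.3 UPM, against 33.4 UPM (5 UMIs) in vas deferens clear cells.

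The receptors and second chains were spread over several cell types, some of which also carried the ligands. Among populations with at least 20 UMIs of the gene, *Il6ra* was highest in stem-like stromal cells, at 57.8 UPM, 1.63-fold (1.04 to 2.60) above the caput population principal 2, and stood at 16.3 in the secretory cells. By the same limit *Il6st* was highest in the muscle 1 population, at 618 UPM, 3.02-fold (2.49 to 3.66) above muscle 2, and stood at 47.4 UPM in secretory cells. Muscle 1 had no UMI of *Il6ra* and 6.61 UPM (2 UMIs) of *Il6*. As a population, endothelial cells held *Il6* (1176 UPM), *Il6ra* (28.7) and *Il6st* (150). Whether single endothelial cells carried all of them was not tested.

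*Il1r1*, the signaling receptor of the macrophage product *Il1b*, was highest in the secretory stromal cells, which had no UMI of *Il1b*, *Il1a* or *Il1rn*. Its co-receptor *Il1rap* had at most 42.8 UPM in any population, with 42.7 (12 UMIs) in Il6-named, 24.5 in stem-like stromal, 16.7 in main basal and 8.88 in secretory cells. Macrophages had 16.3 UPM of *Il1r1* (5 UMIs) and 988 of *Il1rn*. The decoy *Il1r2* stood at 231 UPM in dendritic cells. For TNF, *Tnfrsf1a* was found in all 34 populations. Among those with at least 20 UMIs it was highest in endothelial cells (261 UPM). Secretory stromal cells (182) came next, close to Il6-named stromal cells (181), muscle 1 (172) and fibroblasts (170). By the same limit *Tnfrsf1b* was highest in the macrophages that carried *Tnf* (255 UPM in *Trem2* cells and 254 in the main population).

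For *Tslp*, *Crlf2* was found in all 34 populations, with its highest levels among those with at least 20 UMIs at 127 UPM in low-UMI basal cells and 101 in macrophages, next to each other within counting error (1.25-fold, 0.772 to 2.06). *Il7r*, the other chain, was confined among populations with at least 20 UMIs to macrophages (258 UPM) and T cells (190). As a population, main macrophages held both chains, with *Crlf2* in 12.4% (6.33 to 21.0) and *Il7r* in 14.6% (8.01 to 23.7) of 89 thinned cells (22.1% and 23.1% unthinned). The shares were 4.65% (2.03 to 8.96) and 0 of 172 in main clear cells, which were deeper (median 5328 against 2824 UMIs). Joint detection of the chains in single cells was not tested. For *Csf1r*, its ligand *Csf1* was highest in secretory stromal, endothelial and muscle 1 cells (159 UPM) and stood at 16.3 UPM in macrophages, while the second ligand *Il34* was highest in clear cells, at 48.6 UPM (16 UMIs) in the Amylin and 26.6 in the main population. *Il34* had no UMI in macrophages.

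Over the 34 populations, the genes most like each member in log2(UPM + 10) were described among 12370 genes with at least 50 UMIs. These Pearson correlations have n = 34 populations, which share libraries and differ in depth, and no p-value was taken. *Csf1r* had no UMI in 22 of the populations, and *Tnf* and *Ptx3* had none in 15 each. Their values therefore rest largely on the few populations where these genes were high. *Il6* was most like *Slc10a6* (r = 0.948), *Steap4* (0.902) and *Scn7a* (0.894). *Il1b* was most like *Spi1* (0.992), *Cd86* (0.987) and *Ncf4* (0.985), *Tnf* like *Ms4a6d* (0.994), *Nlrp3* (0.991) and *Lrrc25* (0.989), and *Csf1r* like *Fcgr3* (0.996), *C1qc* (0.994) and *Ms4a7* (0.990). *Ptx3* was most like *Ptgir* (0.958), *Bmper* (0.958) and *Myoc* (0.949), and *Il1r1* like the fibroblast matrix genes *Dcn* (0.843), *Lum* (0.840) and *Ecm2* (0.831). *Csf1* was most like *Ptn* (0.889), *Abi3bp* (0.873) and *Itga5* (0.866). *Tslp* had the lowest values, 0.759 with *Ces2g* and 0.744 with *Lif* and with *Itga2*.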

How the data were processed

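The authors made 10x Chromium 3′ libraries, aligned reads to mm10 (the GRCm38 assembly) with HISAT2 2.0.4, counted UMIs per RefSeq gene with ESAT, ignoring reads that mapped to several places, and subtracted ambient RNA with a modified SoupX from each cell, which lowered the total by 2.80% to 4.48% a library. The deposited matrix holds UMI counts, all whole, for 16892 genes and 8880 cells that had 350 to 14999 UMIs before that subtraction. The deposited table of cells also gives population names, which were used without re-clustering, and size factors, a per-cell score used only in an alternative.

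UMIs were summed over groups of cells. The 95% intervals, for counting error only, were Clopper-Pearson for shares, exact Poisson for levels and exact conditional binomial where levels were divided. A gene was tested where a group had at least 20 UMIs and called at a fold of 4 with a floor of 3 UMIs. The call rule was tested on simulated data. Shares used cells thinned to 1000 UMIs with a fixed seed. With 1 library a group there is no test and no p-value. Doublets were scored from simulated doublets, and 178 cells (2.00%) were left out only in an alternative. The members, marker and pathway lists and thresholds were chosen with earlier results of these data known. Named were the 8 members, their receptors, antagonist, decoy and second ligands, and 3 most similar genes each. Pathway genes outside this rule, the marker genes given with values, the corpus comparisons, the joint detection and the values without single cells were chosen after values were seen. Of the listed markers, *Adgre1* is not among the genes of the matrix. Alternatives covered folds, UMI minimums, the floor, means over cells, size factors, depth, doublets, the *Trem2* macrophages and each library left out. Scripts ran in Python 3.11.15 with scipy 1.17.1 and numpy 2.4.6, tables were handled in pandas 2.3.3, doublet scores used scikit-learn 1.9.0, and plots were drawn in matplotlib 3.10.9.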

Additional observations from a re-analysis of the deposited data

How the results depend on the processing

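Counts of members called were recomputed 122 times under alternatives, and 96 stayed within 1.5 times of the value given. Among 531 values of single members, no ratio past the fold changed direction, while some ratios near 1 did, such as that of *Csf1* between corpus and the other libraries in Il6-named cells (log2 0.13 without the vas deferens and 0.32 without the cauda). With a fold of 2, 7 members in place of 4 were concentrated in 1 broad type, 1 in place of 0 differed between vas deferens and epididymis in myofibroblasts (*Tslp*), 2 in place of 1 in macrophages (*Tnf* added), and 3 in place of 1 between corpus and the other libraries in myofibroblasts. With a fold of 8, 2 in place of 5 were higher in secretory than in other stromal cells (*Tslp* and *Ptx3*), and 0 differed between vas deferens and epididymis in endothelial cells or between corpus and the other libraries in myofibroblasts, endothelial or Il6-named cells. With a mean over cells, or with UMIs divided by size factors, 3 were higher in secretory cells (*Il6*, *Tslp* and *Ptx3*) and 1 differed in endothelial cells between vas deferens and epididymis (*Csf1*, without *Il6*). Within the vas deferens library, an alternative chosen after seeing the data, 3 were higher in secretory cells. Without the cell with most UMIs of each member, likewise chosen after seeing the data, 0 differed between corpus and the other libraries in myofibroblasts and in endothelial cells. With a minimum of 50 UMIs, 0 differed between vas deferens and epididymis in macrophages. The number of members detected in at least 20% of the cells of a population, 8, was 5 with cells thinned to 500 UMIs and 5 with at least 2 UMIs required.

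Leaving out each library in turn gave 0 to 5 members higher in secretory stromal cells and 3 to 8 differing between macrophages and secretory cells, both lowest without the vas deferens, which holds the secretory cells. It gave 1 to 2 between vas deferens and epididymis in endothelial cells (1 without the caput), 0 to 1 between corpus and the others in myofibroblasts (0 without the cauda) and 0 to 2 in endothelial cells (0 without the vas deferens, 1 without the cauda). It gave 1 to 2 members whose highest population stood at least 4-fold above the next, 1 without the vas deferens. Without that library *Il6* and *Csf1* were highest in Il6-named stromal cells, *Il1r1* and *Ptx3* in fibroblasts and *Tslp* in main basal cells. Over all alternatives, 0 of the 8 members kept the same highest population throughout. No paired analysis was possible because each region has 1 library. Depth limits *Csf1r* most, with 217 UMIs in all, and levels in caput macrophages, which rest on 7 cells.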
